A study of Mus musculus with 6 samples.

Results

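Smooth-muscle contractile genes and genes driven by the actin-sensing factors SRF and YAP were followed across 6 arrays of 3T3-L1, a mouse fibroblast line used as a model of fat cell differentiation. They are 10 genes, named by symbol: Acta2, Tagln, Cnn1, Myl9, Tpm1, Tpm2, Actg2, Thbs1, Ccn1 (formerly Cyr61) and Ccn2 (formerly Ctgf). Each was found in the platform annotation with 1 probe set, out of 19938 genes with a single symbol. Of the 10, 6 had a mean over the arrays that reached log2 5.87, the median over genes (called the filter floor here), and Tagln, Cnn1, Actg2 and Ccn2 lay below it.

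Total RNA was hybridised to Affymetrix whole-transcript arrays, with 1 array for each of 6 conditions and log2 signal as the unit. Fibroblasts were kept in medium with 10% calf serum and were either untreated, given 0.5 mM adenine for 3 days or given 0.5 mM AICAR for 3 days. Adipocytes were made from confluent fibroblasts in 10% fetal bovine serum with dexamethasone (1 µmol/l), insulin (1 µg/ml) and IBMX (115 µg/ml) for 3 days, and then held for 3 days in serum with insulin alone. Their 3 cultures were untreated, or received adenine or AICAR at that same 0.5 mM during the 3 days of induction only. Adenine is a free purine base, and AICAR is an imidazole nucleoside, which cells phosphorylate to an AMP mimic able to activate the AMP-activated protein kinase. The adipocyte state therefore goes together with the induction drugs, the change of serum and the longer culture, which cannot be told apart here. Treated adipocytes also had the compound together with the induction drugs and then 3 days without it, unlike the fibroblasts. Each pairwise difference rests on single arrays, so it has no replicate behind it and its precision is limited by that number.

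Contractile genes are read out by serum response factor (SRF), which binds the CArG box and is activated when actin monomers are used up in filaments and release the myocardin-related factors MRTF-A and MRTF-B. YAP and its relative TAZ enter the nucleus in spread, tense cells and act through TEAD factors, for which Ccn1 and Ccn2 are widely used readouts. Fibroblasts that build contractile stress fibres with smooth muscle actin are called myofibroblasts, and preadipocytes are known to take their stress fibres apart and round up as they differentiate.

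Promoter sequences from RefSeq (GRCm38.p6, from 250 bases before to 50 after the start of transcription) were matched for 6 of the 10 genes, namely Acta2, Cnn1, Myl9, Tpm1, Tpm2 and Ccn1. They are shown for genes whose levels moved together or apart below. The CArG box is a pair of C, then 6 letters that are each A or T, then a pair of G, and it was searched on both strands. It occurred in 1.63% of 32851 promoters and in 1 of the 6, that of Myl9. A form with 1 letter off occurred in 19.9% of promoters and in 3 of the 6 (Acta2, Myl9 and Tpm1). The TEAD core, CATTCC on either strand (GGAATG on the other), occurred in 14.7% of promoters and in 3 of the 6 (Acta2, Tpm1 and Ccn1), and none of the printed matches overlap. Such a match is a description of the letters in this window. Sites in Acta2 (chr19:34255438-34255467, chr19:34255388-34255417 and, for the TEAD core, chr19:34255502-34255531) and Tpm1 (chr9:67049274-67049303, chr9:67049415-67049444 and, for the TEAD core, chr9:67049252-67049281), all on the minus strand, are given as 30 bases with the match in capitals and its position counted from the start of transcription.
Acta2 CArG form at -84 to -75: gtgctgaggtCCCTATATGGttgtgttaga
Acta2 CArG form at -34 to -25: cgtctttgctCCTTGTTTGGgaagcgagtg
Acta2 TEAD core at -146 to -141: gagcagaacagaGGAATGcagtggaagaga
Tpm1 CArG form at -80 to -71: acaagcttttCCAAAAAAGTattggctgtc
Tpm1 CArG form at -221 to -212: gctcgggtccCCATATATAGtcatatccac
Tpm1 TEAD core at -56 to -51: tggctgtcctaaGGAATGcggtcgcccccc

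The stretch before the Myl9 gene (GRCm38.p6 chr2:156775214-156775407, plus strand) holds an exact CArG box and a form with 1 letter off, both in capitals. The stretch before Ccn1 (GRCm38.p6 chr3:145649986-145650235, minus strand) holds 1 TEAD core, in capitals, and neither form of the CArG box was matched in its promoter window. These 2 promoters, of a contractile and a YAP-linked gene, were picked by levels that went opposite ways with AICAR in fibroblasts (Myl9 -0.55, Ccn1 0.83). Acta2 and Tpm1, whose promoters also hold a TEAD core, were lower there (-1.13 and -0.44). A part of the sites in these levels was not tested.
Myl9 upstream stretch: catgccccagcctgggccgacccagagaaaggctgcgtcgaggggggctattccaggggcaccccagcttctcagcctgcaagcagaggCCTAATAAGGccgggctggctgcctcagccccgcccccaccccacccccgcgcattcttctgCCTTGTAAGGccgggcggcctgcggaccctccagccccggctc
Ccn1 upstream stretch: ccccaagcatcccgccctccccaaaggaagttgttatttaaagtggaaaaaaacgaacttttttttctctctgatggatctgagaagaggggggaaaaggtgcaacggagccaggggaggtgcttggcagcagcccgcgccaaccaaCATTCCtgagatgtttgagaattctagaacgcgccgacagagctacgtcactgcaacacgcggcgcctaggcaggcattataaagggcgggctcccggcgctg

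The actin gene Acta2 (chr19:34240336-34255585, GRCm38.p6), which encodes the smooth muscle actin that defines myofibroblasts, had the second widest span among the 10 genes. Its log2 signal was 10.79 in control, 10.67 in adenine and 9.66 in AICAR fibroblasts, and 7.24 in control, 6.03 in adenine and 9.19 in AICAR adipocytes. All 3 fibroblast arrays were above all 3 adipocyte arrays, but the AICAR adipocytes stood only 0.47 below the AICAR fibroblasts. The state difference (adipocyte minus fibroblast) was -3.54 in control medium (11.7-fold lower), -4.64 with adenine (24.9-fold lower) and -0.47 with AICAR.

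The other smooth muscle actin, Actg2 (chr6:83512909-83536251), stayed below the filter floor on all 6 arrays, with log2 signals from 4.56 in adenine adipocytes to 5.24 in adenine fibroblasts. Actin genes are close copies of each other, so part of a probe set's signal may come from a relative. Acta1 and Actc1, the skeletal and cardiac actins, ranged from 6.37 to 6.76 and from 6.24 to 6.62, and the cytoplasmic actin Actb from 12.38 to 12.82, far narrower than Acta2.

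**Figure D1:**
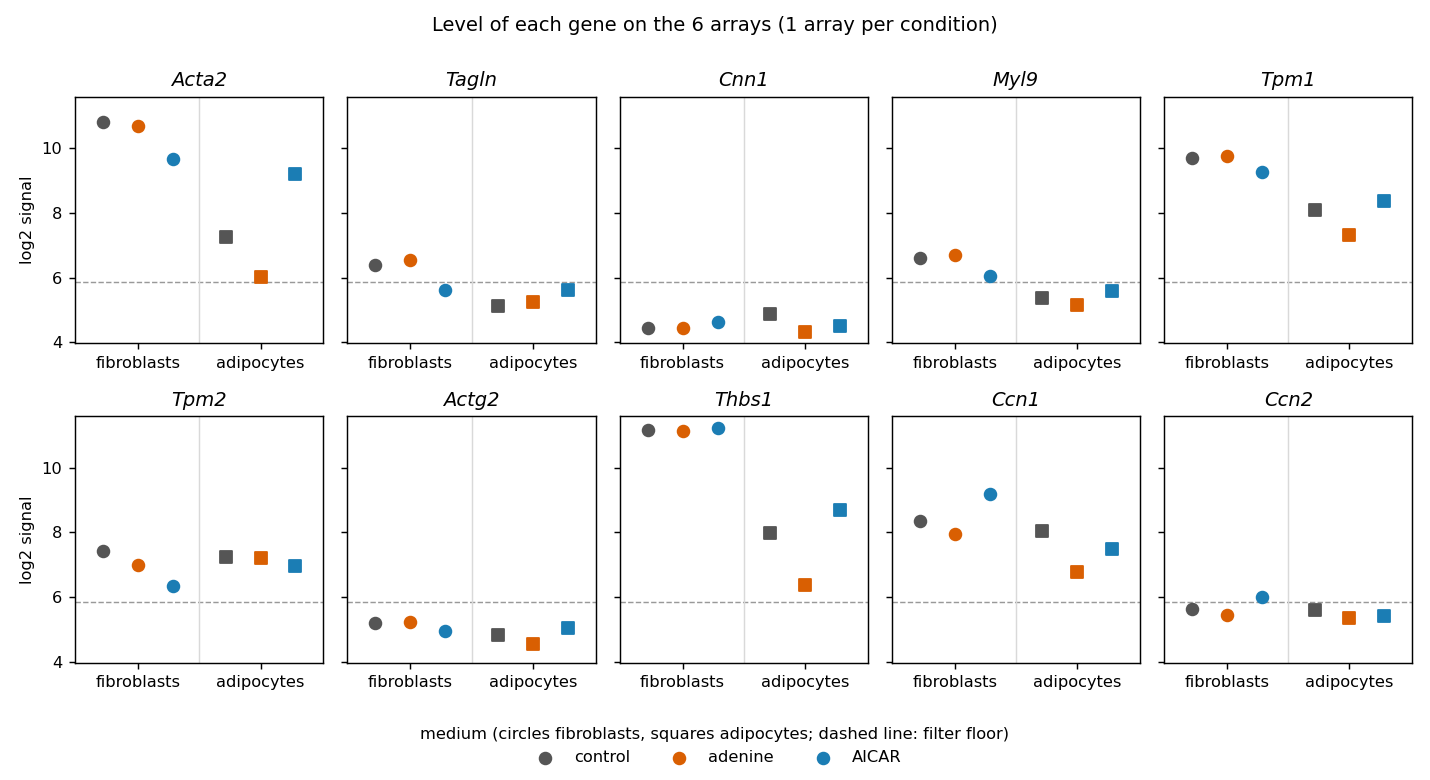
Log2 signal (y axis) of each of the 10 genes on the 6 arrays, with fibroblasts as circles on the left and adipocytes as squares on the right of each panel, coloured by medium, and the filter floor of 5.87 as a dashed line. Each point is 1 array. Acta2, Tagln, Myl9, Tpm1 and Thbs1 have every fibroblast point above every adipocyte point.

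Thbs1 (chr2:118111876-118127133) encodes thrombospondin 1, a matrix glycoprotein that can activate latent TGF-beta, and had the widest span of the 10. Its log2 signal was 11.17, 11.14 and 11.23 in control, adenine and AICAR fibroblasts and 7.99, 6.39 and 8.69 in control, adenine and AICAR adipocytes. The fibroblast arrays lay within 0.1 of each other and the adipocyte arrays spread over 2.29 and lay below every fibroblast array. Its state difference was -3.18 in control medium (9.08-fold lower), -4.74 with adenine (26.8-fold lower) and -2.55 with AICAR (5.84-fold lower).

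The tropomyosins, which run along actin filaments, went separate ways. Tpm1 (chr9:67022590-67049672) had log2 signals of 9.69, 9.74 and 9.25 in control, adenine and AICAR fibroblasts and 8.09, 7.32 and 8.36 in the corresponding adipocytes. Every fibroblast array was above every adipocyte array, by 0.89 or more. Its probe set is annotated with many transcripts, so isoforms of Tpm1 cannot be told apart here. Tpm2 (chr4:43513726-43523583) stood at 7.44, 7.0 and 6.36 in the fibroblasts and 7.25, 7.22 and 6.98 in the adipocytes. Its states overlapped, and its lowest array was the AICAR fibroblasts.

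Among the other contractile genes, Myl9 (chr2:156775408-156781657), a regulatory light chain of non-muscle and smooth muscle myosin, had log2 signals of 6.59, 6.69 and 6.04 in fibroblasts and 5.37, 5.16 and 5.57 in adipocytes, in the order control, adenine, AICAR. Tagln (chr9:45929628-45936058), the actin-binding protein transgelin, had 6.38, 6.53 and 5.62 in fibroblasts and 5.14, 5.24 and 5.60 in adipocytes. For both, all fibroblast arrays were above all adipocyte arrays, though for Tagln the AICAR fibroblasts and the AICAR adipocytes were 0.02 apart. All 3 adipocyte levels of each gene lay below the filter floor, so their folds depend on the background correction. The calponin gene Cnn1 (chr9:22099221-22109221), whose product binds actin and slows myosin, was below the floor on every array, between 4.33 in adenine adipocytes and 4.88 in control adipocytes.

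The matricellular proteins Ccn1 and Ccn2 connect cells to the matrix through integrins. Ccn1 (chr3:145646971-145649985) had log2 signals of 8.34, 7.95 and 9.17 in control, adenine and AICAR fibroblasts and 8.04, 6.78 and 7.50 in the corresponding adipocytes. The states overlapped with control adipocytes just above adenine fibroblasts. Ccn2 (chr10:24595442-24598683) ranged from 5.37 in adenine adipocytes to 6.01 in AICAR fibroblasts, the only array on which it was above the floor.

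In untreated cells 5 of the 10 genes (Acta2, Thbs1, Tpm1, Tagln and Myl9) were at least 2-fold lower in adipocytes and 0 were higher, beside 2.57% of all 19938 genes at least 2-fold lower and 1.68% higher. The median difference of the 10 was -0.80, and that of all genes was 0.08. Below 2-fold stood Actg2 (-0.38), Ccn1 (-0.30), Tpm2 (-0.19) and Ccn2 (-0.04), and Cnn1 was at 0.43. Between the adenine cultures 6 of 10 were at least 2-fold lower, Ccn1 (-1.17) being the sixth, with 0 higher, against 4.89% and 3.86% of all genes. Between the AICAR cultures only Thbs1 and Ccn1 (-1.67) were, with 0 higher, against 2.79% and 3.27% of all genes. The states did not overlap for 5 of 10 genes, and 13.1% of all genes had every fibroblast array above every adipocyte array.

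**Figure D2:**
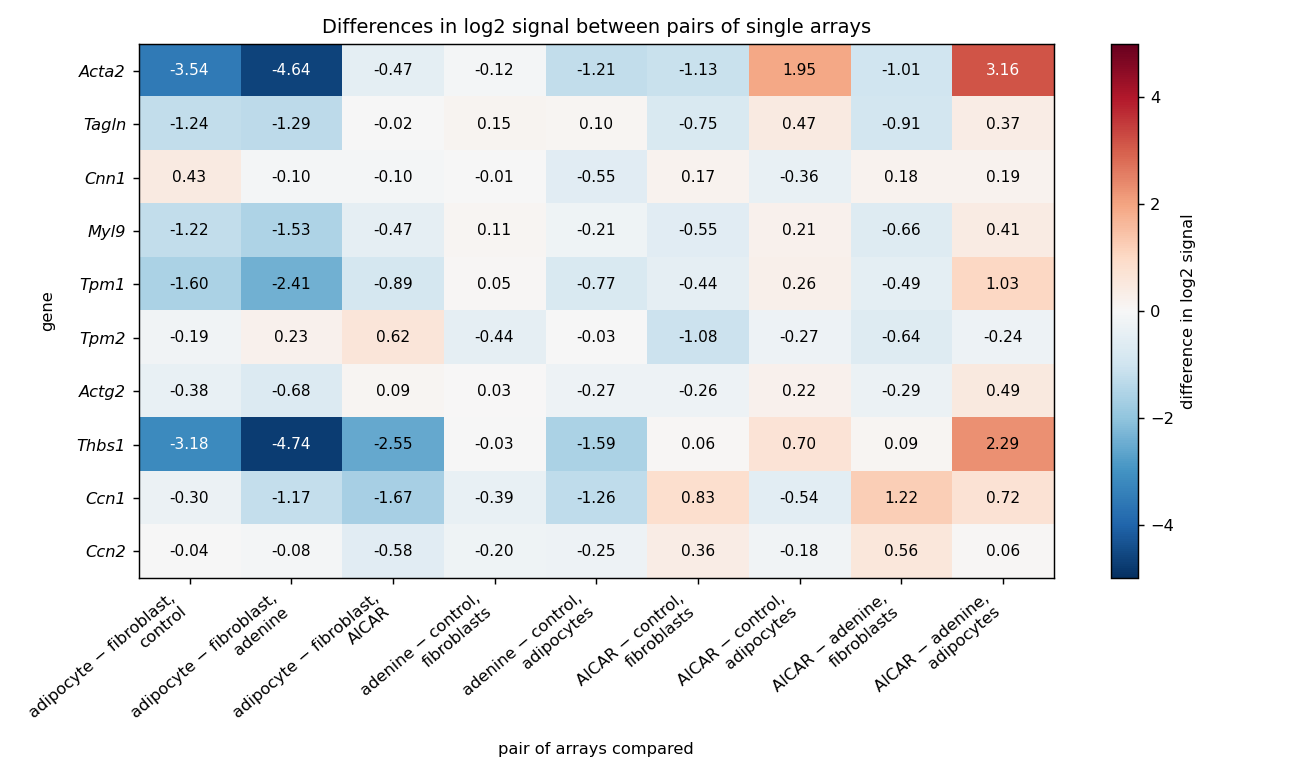
Difference in log2 signal (colour and number) of each of the 10 genes (rows) between 9 pairs of single arrays (columns). Acta2 and Thbs1 have the widest values, from -4.64 and -4.74 for the adenine pair of states to 3.16 and 2.29 for AICAR minus adenine in adipocytes.

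The state difference could also be fitted over the 3 media with limma, as an additive model of state and medium on the 9969 genes at or above the floor. Its error is the departure from additivity between conditions (2 residual degrees of freedom) and not the spread between cultures. At a Benjamini-Hochberg adjusted p under 0.05, 5.37% of tested genes were lower in adipocytes and 5.22% higher. Thbs1 fell by 3.49 (SE 0.411, limma adjusted p = 0.0121) and Tpm1 fell by 1.64 (SE 0.294, limma adjusted p = 0.0295), each lower in 3 of 3 media and above the floor on all 6 arrays. Myl9 had a coefficient of -1.07 (SE 0.232, limma adjusted p = 0.0443), but with a mean of 5.90 it reached the floor only through its fibroblast arrays, which favours a difference in that direction, so its value is a description. Acta2 had a coefficient of -2.89 (SE 0.755, limma adjusted p = 0.0693) and Ccn1 one of -1.05 (SE 0.274, limma adjusted p = 0.0693), also lower in 3 of 3 media but not past the threshold. Tpm2 had a coefficient of 0.22 (limma adjusted p = 0.52). Without the AICAR pair Acta2 passed, with a coefficient of -4.09 (limma adjusted p = 0.00515, range over the 9 alternatives 0.00515 to 0.282). Without the control pair 0 of the 9969 genes passed in limma (2095 had an unadjusted p under 0.05). The limma adjusted p of Myl9 was 0.129 without the adenine pair, 0.0509 with median centring and 0.0509 with no filter, in a range over its alternatives of 0.0171 to 0.211.

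Markers of cell identity were read on the same arrays. Adipocyte markers separated the states, with Adipoq between 4.05 and 4.45 in fibroblasts and between 10.64 and 12.18 in adipocytes. Adipoq, Cd36, Plin1, Cidec, Cebpa, Retn and Car3 were below the floor on all fibroblast arrays and reached it only through the adipocytes, so their levels are a description. The summed linear signal of 12 adipocyte markers was 3882 to 4985 in fibroblasts and 17359, 31474 and 15625 in control, adenine and AICAR adipocytes. That of 9 fibroblast markers was 17097 to 22160 in fibroblasts and 14640, 7251 and 12947 in the same adipocytes. Of 10 smooth muscle and pericyte markers 7 lay below the filter floor, including Myh11 (5.12 to 5.41), Lmod1, Myocd, Cspg4 and Rgs5, and 3 (Smtn, Des and Notch3) were above it. Endothelial and epithelial markers were below the floor (0 of 6 above in each list), as were 5 of 7 leukocyte markers. The lysozyme gene Lyz2 and Cd68 had means above it. Lyz2 had 7.10 to 8.12 in fibroblasts, all above the floor, and 3.81 to 5.57 in adipocytes, all below it. Cd68 had 7.44 in AICAR fibroblasts and 5.51 to 5.95 on the other arrays. Whether any of these markers had a part in the lower contractile genes of adipocytes was not tested. Fewer cells of a type and less RNA per cell cannot be told apart in these bulk samples.

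In fibroblasts the adenine differences of the 10 genes were all small in size. At 2-fold 0 of 10 were lower and 0 higher, as were 0.0451% and 0.0903% of all genes. The differences (adenine minus control) ran from -0.44 for Tpm2 and -0.39 for Ccn1 to 0.15 for Tagln, with a median of -0.02 beside -0.01 for all genes. Acta2 was at -0.12, Tpm1 at 0.05 and Thbs1 at -0.03. Few genes moved in this comparison, and Tpm2 and Ccn1 lay near its lower end, at percentiles 1.39 and 2.29 of all genes.

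In adipocytes that had received adenine, 3 of the 10 genes were at least 2-fold below the untreated adipocytes. Thbs1 was lower by 1.59 on the log2 scale (3.02-fold), Ccn1 by 1.26 (2.40-fold) and Acta2 by 1.21 (2.32-fold). At 2-fold 0 were higher, and the shares of all genes lower and higher were 1.29% and 0.843%. Tpm1 was at -0.77, Cnn1 at -0.55, Actg2 at -0.27, Ccn2 at -0.25, Myl9 at -0.21 and Tpm2 at -0.03, and Tagln at 0.10. The median was -0.41, and that of all genes was -0.07. Of the 7 fibroblast markers 6 were at least 2-fold lower too, among them Dcn at -1.57, Pdgfra at -1.57 and Thy1 at -1.60, and so were 7 of 8 myofibroblast matrix genes such as Col1a1 (-1.75) and Postn (-2.30), while 9 of 10 adipocyte markers were higher, from 0.33 (Lpl) to 1.63 (Retn), and Car3 was at -0.83. Of the 9969 genes at or above the floor, 2.4% were at least 2-fold lower and 5233 were higher by any amount. The part of these markers in the lower Acta2, Thbs1 and Ccn1 was not tested.

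With AICAR in fibroblasts the contractile genes other than Cnn1 were lower and the matricellular genes were not. Acta2 was lower by 1.13 (2.18-fold) than in untreated fibroblasts and Tpm2 by 1.08 (2.11-fold), followed by Tagln (-0.75), Myl9 (-0.55), Tpm1 (-0.44) and Actg2 (-0.26). The matricellular genes were at 0.83 (Ccn1), 0.36 (Ccn2) and 0.06 (Thbs1), and Cnn1 was at 0.17. At 2-fold 2 of 10 were lower and 0 higher, beside 2.12% and 1.08% of all genes. The AICAR array was the lowest fibroblast array for 6 of the 7 contractile genes (31.6% of all genes) and the highest for the other 4 genes, Cnn1 and the 3 matricellular ones (51.9% of all genes). This division was noticed after the values were seen and has no test. Actg2 and Cnn1 were below the floor on every fibroblast array. Tagln was below it with AICAR (5.62), and Ccn2 was in control (5.65) and adenine (5.45) fibroblasts. The place of these 4 genes in the division therefore depends on the background correction. Of 7 fibroblast markers at or above the floor 3 were at least 2-fold lower (Thy1 at -1.19, S100a4 at -2.28 and Dlk1 at -2.45), while Pdgfrb was at 0.40, Pdgfra at 0.16, Vim at 0.14 and Dcn at -0.28. The smooth muscle markers at or above the floor stood at 1.10 (Smtn), -0.54 (Des) and -0.14 (Notch3). On the same array 6 of 10 adipocyte markers were higher, most of all Fabp4 (1.65) and Pparg (0.96), and 4 were lower, down to Adipoq (-0.37). The median of these 10 was 0.13. Of the 9969 genes at or above the floor, 4736 were higher by any amount, 5232 lower by any amount, and 3.69% at least 2-fold lower. The 6 of 10 adipocyte markers that were higher are near that share. The muscle troponin Tnnt2 (1.54) and the leukocyte marker Cd68 (1.49) were higher, and the leukocyte marker Lyz2 (-0.89) was lower. Of 7 reference genes Gusb was at -1.49 and Pgk1 at 0.93, and the other 5 lay between -0.34 and 0.21 (median of the 7 -0.02). The part of these markers in the lower contractile genes was not tested.

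In adipocytes the AICAR difference of Acta2 ran the other way. Acta2 was higher by 1.95 (3.85-fold) in adipocytes that had received AICAR than in untreated ones. It was the only 1 of the 10 at least 2-fold higher, with 0 lower, against 0.341% and 0.221% of all genes. Thbs1 was at 0.70, Tagln at 0.47, Tpm1 at 0.26, Actg2 at 0.22 and Myl9 at 0.21. Ccn2 (-0.18), Tpm2 (-0.27), Cnn1 (-0.36) and Ccn1 (-0.54) were lower. Of 7 fibroblast markers 5 were lower, from -0.87 (Pdgfra) to -0.15 (Dcn), and Thy1 and Vim were at 0.07. Of 8 myofibroblast matrix genes 7 were lower, from -0.84 (Fap) to -0.19 (Col3a1), and Fn1, fibronectin, was at 0.42. Of 10 adipocyte markers 6 were lower, with Car3 at -2.12 and Retn at -1.13, and the highest was Adipoq at 0.15. The smooth muscle markers at or above the floor stood at -0.60 (Smtn), 0.40 (Des) and -0.11 (Notch3). Of the 9969 genes at or above the floor, 5247 were lower by any amount, and the 6 of 10 adipocyte markers are near that share. The part of these markers in the higher Acta2 was not tested.

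Set side by side, the AICAR difference of Acta2 was -1.13 in fibroblasts and 1.95 in adipocytes, 3.07 apart. Tagln had -0.75 and 0.47, 1.22 apart, and Ccn1 had 0.83 and -0.54, a gap of -1.37. These 3 of 10 genes had opposite signs in the 2 states and were at least 2-fold apart, beside 4.05% of all genes. With adenine 0 of 10 did, beside 2.81% of all genes, and the widest gap was that of Thbs1, with -0.03 in fibroblasts and -1.59 in adipocytes. The difference between states was not tested, since each rests on 4 single arrays. In adipocytes the compound was given with the induction drugs and was followed by 3 days in insulin alone. Cell state and this schedule cannot be told apart here.

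**Figure D3:**
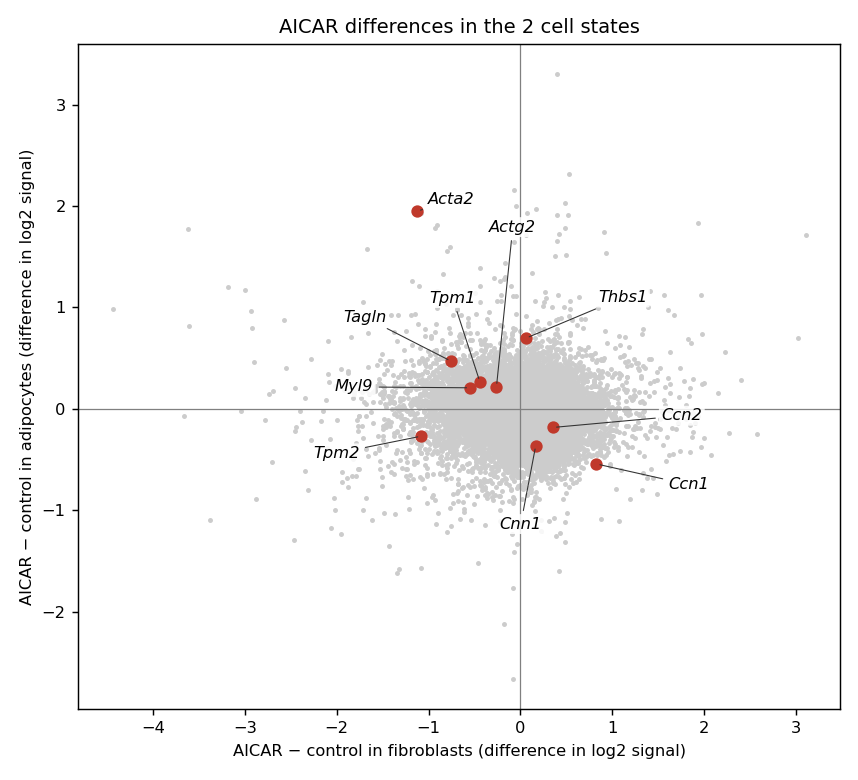
AICAR minus control in fibroblasts (x axis) against AICAR minus control in adipocytes (y axis), both as differences in log2 signal, for 19938 genes in grey and the 10 genes in red. Acta2 lies at the upper left, at -1.13 and 1.95, and Ccn1 at the lower right, at 0.83 and -0.54.

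Both compounds were given at the same dose for the same time. Adenine is a base without a sugar and AICAR carries a ribose. In adipocytes Acta2 was 3.16 higher with AICAR than with adenine (8.94-fold), Thbs1 2.29 (4.89-fold) and Tpm1 1.03 (2.04-fold). With 0 lower, these 3 of 10 compare with 1.17% of all genes at least 2-fold higher and 0.818% lower. Tpm2 (-0.24) was the only 1 of the 10 that was lower with AICAR. Acta2, Thbs1, Tpm1, Myl9 and Actg2 shared the order AICAR above control above adenine in adipocytes, 5 of 10 beside 16.2% of all genes. The adipocyte signals of Myl9 and Actg2 were all below the filter floor. In fibroblasts Ccn1 was 1.22 higher with AICAR than with adenine (2.33-fold), and Acta2 was at -1.01 (2.01-fold lower, or -0.93 after quantile normalization). This made 1 of 10 at least 2-fold higher and 1 lower, beside 1.03% and 2.25% of all genes. Both comparisons share the treated arrays with those against the controls.

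The wider programme was read from 5 gene lists, using members at or above the floor and the 9969 genes there as background. In the list of other SRF-linked and actin cytoskeleton genes, 3 of 27 were at least 2-fold lower in untreated adipocytes and 1 higher, with a median of -0.40, beside 4.27% and 2.88% of genes at or above the floor and a median of 0.02. The LIM protein gene Fhl2 (-2.87), calponin 2 (Cnn2, -1.31) and the focal adhesion gene Zyx (-1.11) were the lower ones, and Fhl1 (2.36) the higher one. Non-muscle myosin Myh10 was at 0.33. Over the 3 media Zyx, Myh9, Cnn3 and Pdlim7 fell and Fhl1 rose in the additive model (4 and 1 of 27), beside 5.37% of tested genes lower and 5.22% higher. Fhl1 had 2.48 (SE 0.333, limma adjusted p = 0.0158). Its fibroblast signals of 5.57 to 6.03 lay about the floor, so it passed the filter mainly through its adipocyte arrays. That favours a rise, so its value is a description. Of 16 YAP/TAZ-TEAD targets 5 were at least 2-fold lower and 0 higher in untreated adipocytes (median -0.56). They were Ccdc80 (-1.96), a secreted matrix protein gene, Crim1 (-1.50), the tissue factor gene F3 (-1.45), Gadd45a (-1.17) and Ajuba (-1.06). Arhgef17 (0.64) and Dock5 (-0.01) were at the other end, and 6 of 16 (the same 5 and Asap1) fell in the additive model with 0 rising.

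Of 4 relatives of the matricellular genes at or above the floor, 2 were at least 2-fold lower in untreated adipocytes, Ccn5 at -1.77 and Ccn4 at -1.31, and 0 higher, beside 4.27% and 2.88% of genes there. Thbs2 stood at -0.61 and Thbs3 at -0.56. Ccn5 fell by 2.18 (SE 0.181, limma adjusted p = 0.00629) in the additive model and Ccn4 fell by 1.74 (SE 0.189, limma adjusted p = 0.0103), whereas Thbs2 (limma adjusted p = 0.0687) and Thbs3 (0.217) did not pass. Of 16 TGF-beta signalling genes 2 were at least 2-fold lower, the feedback gene Pmepa1 (-1.23) and the matrix gene Tgfbi (-1.33), and 1 higher, the co-receptor Tgfbr3 (1.10), with a median of -0.19. The integrin Itgav was at -0.72 and the latent TGF-beta binding protein gene Ltbp2 at 0.90. In the additive model 3 of 16 fell (Pmepa1, Itgav and Ski) and 0 rose, beside 5.37% and 5.22% of tested genes.

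The transcripts of the factors themselves went both ways between untreated states. Srf was at 0.21, Mrtfa at 0.29, Mrtfb at 0.55, Yap1 at -0.13 and Wwtr1, which encodes TAZ, at -0.24. Tead1 (-0.39), Tead2 (-0.51) and Tead3 (-0.15) were lower and Tead4 (1.16) higher, the only 1 of 19 regulators past 2-fold, with 0 lower, beside 2.88% and 4.27% of genes at or above the floor (list median 0.07). In the additive model Vgll3, a TEAD cofactor, fell by 1.27 (SE 0.27, limma adjusted p = 0.0429) and Vgll4, a TEAD repressor, rose by 0.97 (SE 0.136, limma adjusted p = 0.0171). At 1 each of 19, these counts are near the 5.37% and 5.22% of all tested genes. Srf, Mrtfa, Mrtfb, Yap1, Wwtr1 and the TEAD genes did not pass in that model, which does not show that they were equal. The transcript level says nothing of where these proteins were in the cell.

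Between the adenine cultures 9 of 27 SRF-linked and 11 of 16 YAP-linked genes were at least 2-fold lower in adipocytes and 1 and 0 higher, beside 8.47% and 6.75% of genes at or above the floor. Between the AICAR cultures the counts were 1 of 27 and 2 of 16 lower and 1 and 0 higher (Pdlim7, F3 and Ccdc80 lower, Fhl1 higher), beside 4.6% and 5.93%. TGF-beta genes were lower in 6 of 16 in both pairs with 0 higher, and the matricellular relatives in 4 of 4 with adenine and 3 of 4 with AICAR (Ccn5, Ccn4 and Thbs2). Of 19 regulators 2 were lower (Vgll3 and Tead2) and 1 higher (Tead4) in the adenine pair, and 1 lower (Vgll3) and 1 higher (Vgll4) in the AICAR pair. The log2 signal of Fhl2 was 9.78, 10.09 and 7.04 in control, adenine and AICAR fibroblasts and 6.91, 6.01 and 7.06 in the adipocytes, so the AICAR pair differed by 0.01. Cnn2 had 10.85, 10.79 and 9.49 in fibroblasts and 9.54, 7.94 and 9.55 in adipocytes, and its AICAR pair differed by 0.05. Both were thus lower with AICAR in fibroblasts, like Acta2, but stood at 0.15 and 0.00 with AICAR in adipocytes, where Acta2 was at 1.95. Their promoters hold exact CArG boxes, which occurred in 1.63% of all promoters. Of the SRF-linked list only Cnn2 and Fhl2 were looked up, picked by their levels. A part of the box in those levels was not tested. Each box is shown in capitals within 30 bases of GRCm38.p6. That of Cnn2 is at chr10:79988534-79988563 (plus strand). Those of a pair of Fhl2 starts are at chr1:43196838-43196867 and chr1:43163973-43164002 (minus strand).
Cnn2 CArG box at -56 to -47: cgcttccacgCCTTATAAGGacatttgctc
Fhl2 CArG box at -96 to -87 of 1 start: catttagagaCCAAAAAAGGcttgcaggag
Fhl2 CArG box at -31 to -22 of the other start: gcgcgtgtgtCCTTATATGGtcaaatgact

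With adenine in adipocytes 4 of 27 SRF-linked genes (median -0.44), 3 of 16 YAP-linked genes (-0.42), 1 of 16 TGF-beta genes (-0.48), 1 of 19 regulators (-0.03) and 1 of 4 relatives (-0.42) were at least 2-fold lower and 0 higher, beside 2.4% and 1.24% of genes at or above the floor and a median of 0.02. Cnn2 (-1.60), Myof (-1.70), Pmepa1 (-1.02), Vgll3 (-1.28) and Thbs2 (-1.51) were the lowest of each list, Cald1 (-1.11), Zyx (-1.10), Flna (-1.0), Axl (-1.17) and Rbms3 (-1.05) were also past 2-fold, and Myh10 (0.53), Dock5 (0.26), Skil (0.39), Nf2 (0.30) and Ccn5 (-0.25) the highest. With adenine in fibroblasts 0 of the 27, 16, 16, 19 and 4 genes were past 2-fold, from Zyx at -0.44 and Tgfbi at -0.40 to Thbs2 at 0.60 and Ltbp1 at 0.85.

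With AICAR in fibroblasts 3 of 27 SRF-linked genes were at least 2-fold lower and 0 higher (median -0.17), beside 3.69% and 1.7% of genes at or above the floor. Fhl2 was at -2.74, Cnn2 at -1.36 and the immediate early gene Egr1 at -1.19, and Pdlim7, at 0.66, was the highest. YAP-linked genes had 0 of 16 past 2-fold (median 0.16), from Igfbp3 at -0.61 to Ccdc80 at 0.70, and regulators 0 of 19 (median 0.18), from Vgll4 at -0.28 to Tead4 at 0.91, with Srf at 0.56 and Mrtfb at 0.61. Skil (1.04) and Tgfbi (-1.50) were the TGF-beta genes past 2-fold, and Ccn5 was at 1.12. With AICAR in adipocytes 0 of the 27, 16, 19 and 4 genes were past 2-fold (medians 0.00, 0.06, -0.10 and -0.11), beside 0.381% of genes at or above the floor lower and 0.612% higher. Fhl1 (0.83), Ccdc80 (0.89), Rock1 (0.34) and Ccn5 (0.53) were the highest and Egr1 (-0.31), Axl (-0.32), Vgll3 (-0.43) and Thbs2 (-0.86) the lowest. Ltbp1 (-1.09) was the 1 of 16 TGF-beta genes past 2-fold, and Tgfbi (0.10) was the highest of them (median -0.28).

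**Figure D4:**
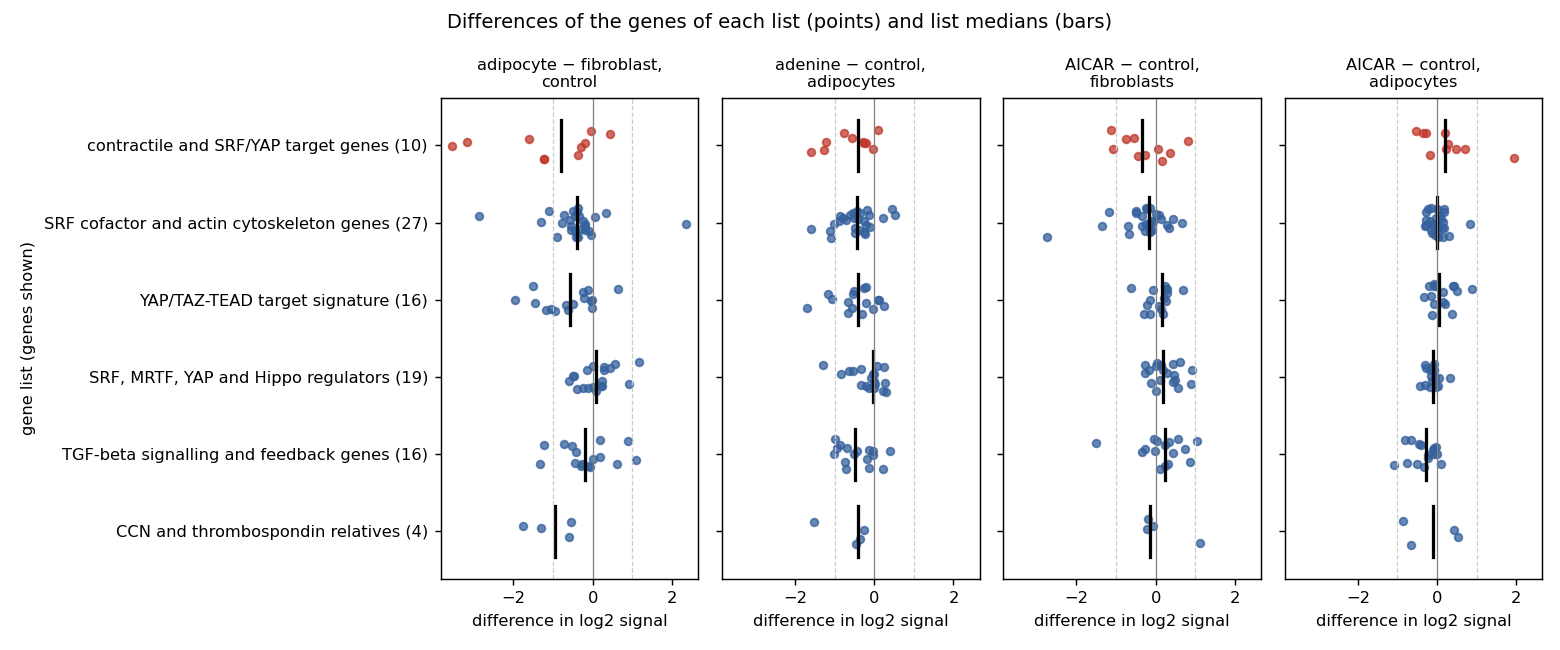
Differences in log2 signal (x axis) of the 10 genes in red and of the genes at or above the floor in 5 related lists in blue (rows, number of genes in brackets), in 4 pairs of arrays (panels). Points are genes, black bars are list medians and dashed lines mark 2-fold; with AICAR in adipocytes Acta2, at 1.95, is the only point past 2-fold on the higher side.

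The pattern of the 10 genes was summarised by centring each on its mean and averaging, which gave 0.68, 0.60 and 0.40 in control, adenine and AICAR fibroblasts and -0.44, -1.05 and -0.20 in the corresponding adipocytes. Tpm1 (Pearson r = 0.996), Thbs1 (0.988), Acta2 (0.97), Myl9 (0.95), Actg2 (0.92) and Tagln (0.85) followed this average over the 6 arrays, Ccn1 (0.74) and Ccn2 (0.48) less so, and Cnn1 (-0.03) and Tpm2 (-0.23) did not. The average is weighted towards genes with a wide span and each gene is part of it. Among other genes at or above the floor that spanned at least 1 on the log2 scale, the 10 most alike were Jam3, Micall2, Arhgdib, Ddah1, Gpx8, Zfp991, Crim1, Plk2, Lrrc8c and Maml2 (Pearson r from 0.99 to 1.00 over 6 arrays). These values share the 6 arrays and are descriptions. The widest of them, Plk2, a polo-like kinase, had log2 signals of 9.56, 9.28 and 9.18 in fibroblasts and 7.59, 6.59 and 8.28 in adipocytes. The junction gene Jam3 had 7.06, 6.98 and 6.81 in fibroblasts and 6.07, 5.54 and 6.25 in adipocytes.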

How the data were processed

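The deposited table holds log2 expression of 35556 probe sets on 6 Affymetrix arrays, made by the authors with Transcriptome Analysis Console 1.0.0.234 on build mm10 (per the submitters' processing notes). How background, normalization and probe summary were done was not stated in the sources used. Array medians (5.41 to 5.49) lay close, and values were used as deposited. Groups came from the labels.

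Of the probe sets, 21789 had 1 symbol in the platform annotation, 1621 had several and 12146 were unnamed. The 19938 symbols were each represented by the probe set with the highest mean. The 10 genes and the lists were chosen with earlier results of these data known. Log2 values of pairs of arrays were subtracted and 2-fold differences counted. The floor was the median of gene means (5.87). Limma 3.58.1 in R 4.3.3 fitted state plus medium on 9969 genes, with Benjamini-Hochberg adjustment at 0.05. That step was also run on simulated data with known changes and an additive truth.

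Besides the 10 genes and the SRF, MRTF, YAP, TAZ and TEAD genes, the rule named in each list the 2 highest and 2 lowest mean state differences, the extremes with each compound, and the 10 genes most like the average. Genes in counts of 5 or fewer and cell markers were named after their values were seen. Alternatives were quantile normalization, median centring, other filters, the mean of a gene's probe sets, 1.5-fold counts, a variance trend and leaving out a pair of arrays.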

Additional observations from a re-analysis of the deposited data

Results flagged for a closer look

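Acta2, Tagln and Ccn1 differed from untreated cells in opposite directions with AICAR in fibroblasts and in adipocytes. The AICAR difference in adipocytes minus that in fibroblasts was 3.07 on the log2 scale for Acta2, 1.22 for Tagln and -1.37 for Ccn1. Each value rests on 4 single arrays and the difference was not tested. AICAR was given to adipocytes with the induction drugs and was followed by 3 days without it, so cell state and schedule cannot be told apart. Tagln was below the filter floor in all adipocyte arrays and in the AICAR fibroblasts (5.62).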

How the results depend on the processing

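When the pairwise differences of the 10 genes were recomputed with quantile normalization, median centring or the mean of all probe sets, 265 values kept their sign and their side of 2-fold, 4 changed sign and 1 fell short of 2-fold. The 265 include every value under the mean of all probe sets, which could not differ because each of the 10 genes has 1 probe set. The signs of Tagln between the AICAR states, Thbs1 with adenine in fibroblasts and Tpm2 with adenine in adipocytes, all under 0.1 in size, turned under at least 1 of the first 2 settings. With quantile normalization Acta2 in fibroblasts was 0.93 lower with AICAR than with adenine, so that 0 of the 10 were at least 2-fold lower there. At 1.5-fold 4 were lower in that comparison, 1 was higher in the AICAR state comparison, 1 was higher with AICAR in fibroblasts and 2 were higher with AICAR in adipocytes. In the additive model of state, limma passed 1055 of 9969 genes, and 605 of the 4985 genes tested with the 75th percentile filter. Of 9969 genes it passed 511 without the adenine pair and 0 without the control pair (2095 at an unadjusted p under 0.05). Without the control pair 0 of the 6 tested genes of interest passed either. The cause was not tested. Signals under the floor and the single array per condition limit every value.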
